A study of Mus musculus with 6 samples.

Results

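Glucocorticoid-responsive genes and metallothioneins were followed in synovial fibroblasts of mice challenged with immune complexes (ICs). The 10 genes were taken by symbol from the combined raw count table, in which all 10 were present among 24348 genes, and all 10 passed the filter on low counts. They were Nr3c1, Hsd11b1, Fkbp5, Tsc22d3, Zbtb16, Sgk1, Dusp1, Errfi1, Mt1 and Mt2. Bulk RNA-seq had been carried out on fibroblasts sorted from the collagenase-digested synovium, the membrane lining the joint cavity. The mice were wild-type, labelled C57BL/6 and given as C57BL/6J in the study's methods. One group of 3 libraries came from mice given ICs, preformed from ovalbumin and rabbit anti-ovalbumin antibody, in the tail vein. The other group of 3 libraries, titled Vehicle and labelled Control for treatment, came from mice not given ICs. The study's methods give one general age range and both sexes for its mice, and the sources used here give neither the age and sex behind each library nor the time between injection and collection of the fibroblasts nor the time of day. The labels do not say whether a library holds the cells of one mouse or of several, so the p-values below measure the spread between libraries, which may in part be technical.

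Glucocorticoids act through the glucocorticoid receptor, a ligand-activated transcription factor encoded by Nr3c1 that is held by chaperones in the cytoplasm until hormone binds and then moves to the nucleus. There it raises genes that limit inflammation and its own activity, among them Fkbp5, Tsc22d3 and Dusp1, and it restrains cytokine, chemokine and protease genes, which is why glucocorticoids are used in inflammatory joint disease. Metallothioneins are small cysteine-rich proteins that bind zinc and copper, and their genes are raised by metal through the transcription factor encoded by Mtf1 and also by glucocorticoids and inflammatory signals. Inside fibroblasts the local supply of active hormone depends on the enzyme encoded by Hsd11b1, which regenerates it from its inactive form.

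The promoters of both metallothionein genes are shown first because they held more copies of the metal-response motif than the windows of the other members. RefSeq start windows on GRCm38.p6, from 250 bases before to 50 bases after the annotated start, were given for 8 of the 10 genes in 16 windows. Zbtb16 and Nr3c1 had no entry. The windows were searched on both strands for the metal response element core, TGCACNC or TGCGCNC. The sequences below are read 5′ to 3′ on the gene's strand, with the cores in capitals, on either strand.
Mt1, chr8:94178839-94179088, + strand, before the start: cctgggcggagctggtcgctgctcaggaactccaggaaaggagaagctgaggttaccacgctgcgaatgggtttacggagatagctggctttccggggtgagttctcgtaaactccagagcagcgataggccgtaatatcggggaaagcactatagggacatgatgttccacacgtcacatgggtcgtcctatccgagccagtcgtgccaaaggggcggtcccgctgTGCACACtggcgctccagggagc
Mt1, chr8:94179089-94179118, + strand, first 30 bases after it: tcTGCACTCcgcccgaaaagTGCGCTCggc
Mt2, chr8:94172368-94172617, + strand, before the start: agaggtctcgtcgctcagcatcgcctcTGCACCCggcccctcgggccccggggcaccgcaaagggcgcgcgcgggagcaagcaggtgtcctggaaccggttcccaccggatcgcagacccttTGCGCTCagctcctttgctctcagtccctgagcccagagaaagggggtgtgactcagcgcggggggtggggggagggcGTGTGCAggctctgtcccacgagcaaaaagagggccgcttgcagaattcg
Mt2, chr8:94172618-94172647, + strand, first 30 bases after it: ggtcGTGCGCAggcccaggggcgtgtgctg

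The Mt1 window held 3 cores, from -23 to -17, from 3 to 9 and from 21 to 27 bases relative to the start. The Mt2 window held 4 cores, of which 3 lay before the RefSeq start and 1 from 5 to 11 bases after it. The annotation used for exon lengths begins Mt2 at 94172664, downstream of all 4 cores. At least 3 cores were present in 1.97% of 32851 promoter windows of the same length, and at least 4 in 0.517%, whereas at least 1 was present in 25.7%. Single cores lay in the windows of Hsd11b1 and Dusp1 and in 1 of the 6 windows of Sgk1. A match of this kind describes letters and is not a measured binding site.

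The glucocorticoid response element was searched as AGAACA and TGTTCT with 3 bases between them, and its single arm AGAACA was searched on both strands as well. One of the 6 Sgk1 start windows held the full element with no mismatch, from -189 to -175 bases relative to that start. The full element with no mismatch was found in 3 of the 32851 windows, which is 0.00913%. The stretch before that start is shown because it holds the only full element without a mismatch among the windows of these genes, with both arms in capitals.
Sgk1, chr10:21993640-21993889, + strand, before the start: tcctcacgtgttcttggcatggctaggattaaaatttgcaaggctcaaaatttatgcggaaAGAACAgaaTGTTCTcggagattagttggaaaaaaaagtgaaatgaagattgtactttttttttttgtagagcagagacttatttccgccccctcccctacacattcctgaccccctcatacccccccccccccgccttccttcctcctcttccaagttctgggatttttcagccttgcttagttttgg

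A second Sgk1 window held the element with 2 mismatches, which 1.84% of all windows matched or bettered. The single arm, present in 19.0% of all windows, lay in 3 Sgk1 windows and in 1 of the 3 windows of Tsc22d3. No glucocorticoid arm or element and no metal core was found in the windows of Fkbp5 and Errfi1, which says only that these letters were not within the searched stretch.

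**Figure D1:**
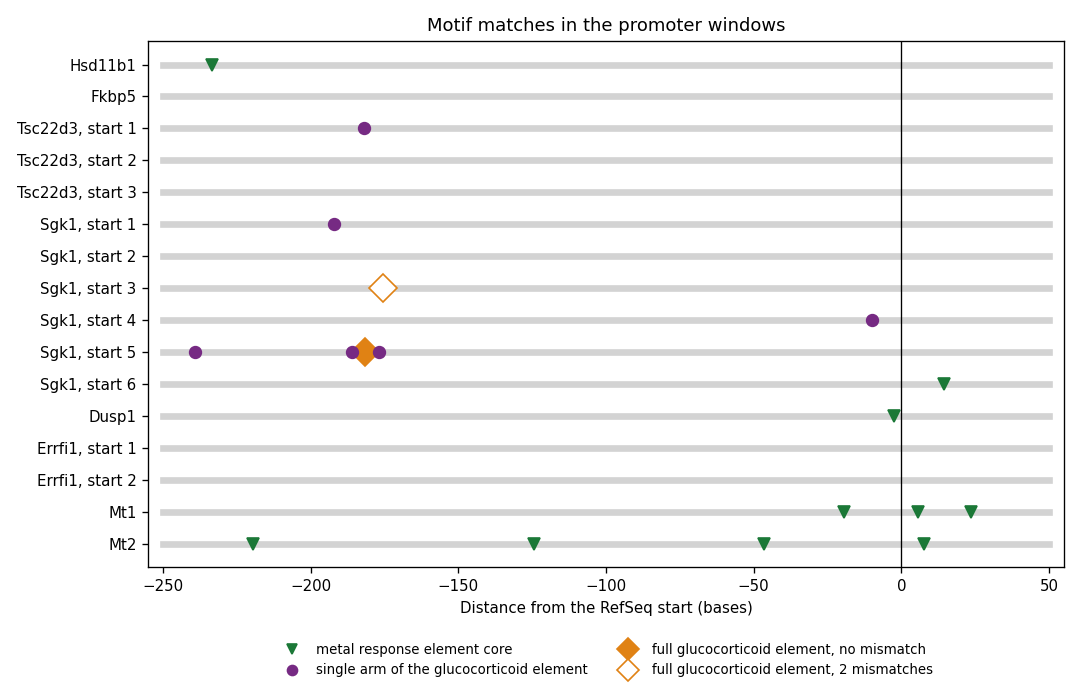
Motif matches in the 16 RefSeq start windows of 8 genes, one row per start, plotted by distance in bases from the annotated start. Triangles mark metal response element cores, circles single arms of the glucocorticoid element, and diamonds the full element, filled with no mismatch and open with 2 mismatches. Mt1 and Mt2 held 3 and 4 cores, and the filled diamond is in a Sgk1 window.

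Total counts per library ranged from 40114331 to 56714304, and the 10 genes took 0.265% to 0.289% of them. The lowest raw count of any member in any library was 669, for Hsd11b1, and the highest was 55085, for Dusp1. The labelled cell type was checked by its markers, summed as CPM, that is scaled to the total of each library. Those of fibroblasts came to 44785 to 46497 CPM in the IC libraries and 45641 to 55505 in the vehicle libraries, with none of the 10 markers at 0 in any library. Single fibroblast markers moved in both directions. By the DESeq2 test described below, 1 of the 10 was called higher and 2 lower, where 2.10% of all tested genes were called. Named after their values were seen, these were Prg4 (1.92-fold, DESeq2 adjusted p = 0.0103), Lum (0.778-fold, 0.00250) and Col3a1 (0.770-fold, 0.00679). Macrophage markers summed to 24.2 to 36.3 against 27.4 to 33.1 CPM, with 3 of 7 markers at 0 in some library, and Adgre1, C1qa and Ptprc had no row in the table. Markers of other cell types were measured at a far lower sum than those of fibroblasts. Skeletal muscle markers summed to 14.4 to 28.9 CPM in IC against 25.2 to 60.1 in vehicle, and mural markers to 490.0 to 588.7 against 570.9 to 621.6. The groups did not overlap in the sums of myogenic markers, 25.0 to 70.5 against 83.2 to 156.2 CPM, endothelial markers, 203.5 to 270.7 against 273.2 to 323.6, and lymphocyte markers, 3.55 to 4.93 against 7.18 to 10.5. DESeq2 called lower 2 of 11 tested skeletal muscle, 2 of 8 myogenic, 2 of 8 endothelial, 1 of 7 mural and 1 of 3 lymphocyte markers. No marker of these lists was called higher, where 2.10% of all tested genes were called. Every tested skeletal muscle, myogenic and endothelial marker had a negative log2 fold change, with medians of -1.92, -1.85 and -0.48. Of the mural markers 5 were negative and 2 positive. Adipocyte markers summed to 1.61 to 3.11 against 1.76 to 3.90 CPM, and neutrophil and erythroid markers to 2.57 to 3.35 against 1.37 to 2.94. Handling and immediate early genes, which cell isolation is known to raise, summed to 27992 to 28247 against 25419 to 26691 CPM, without overlap. The part of these differences in the results below was not tested.

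Of the 10 genes, Zbtb16 was higher and Nr3c1 was lower after IC at an adjusted p under 0.05, by DESeq2's Wald test with Benjamini-Hochberg adjustment. The other 8 did not pass. That is 2 of 10 members, or 20%, where 2.10% of all tested genes were called, 205 higher and 214 lower. The adjustment left out 3870 of the 19925 tested genes, to which DESeq2 gave no adjusted p. With DESeq2's independent filtering on mean count turned off, Zbtb16 had DESeq2 adjusted p = 0.0546 and did not pass. By edgeR's quasi-likelihood test none of the 10 passed at the same adjusted threshold, where 0.186% of all genes did, and 4 members had an unadjusted p under 0.05, against 9.64% of all genes. The study's methods also name removal of batch effects with sva, and with 1 surrogate variable in the DESeq2 fit none of the 10 passed, with 5 at an unadjusted p under 0.05. With DESeq2, 5 of the 10 had an unadjusted p under 0.05, against 9.80% of all genes. The IC and vehicle values did not overlap for Mt1 (higher) and Nr3c1 (lower), 2 of 10, against 15.8% of all tested genes. By sign, 6 members were higher and 4 lower, and their median log2 fold change was 0.10, where that of all tested genes was -0.0019. In a bulk sample of sorted cells a change in RNA per cell and a change in the share of cells that hold the RNA cannot be told apart.

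**Figure D2:**
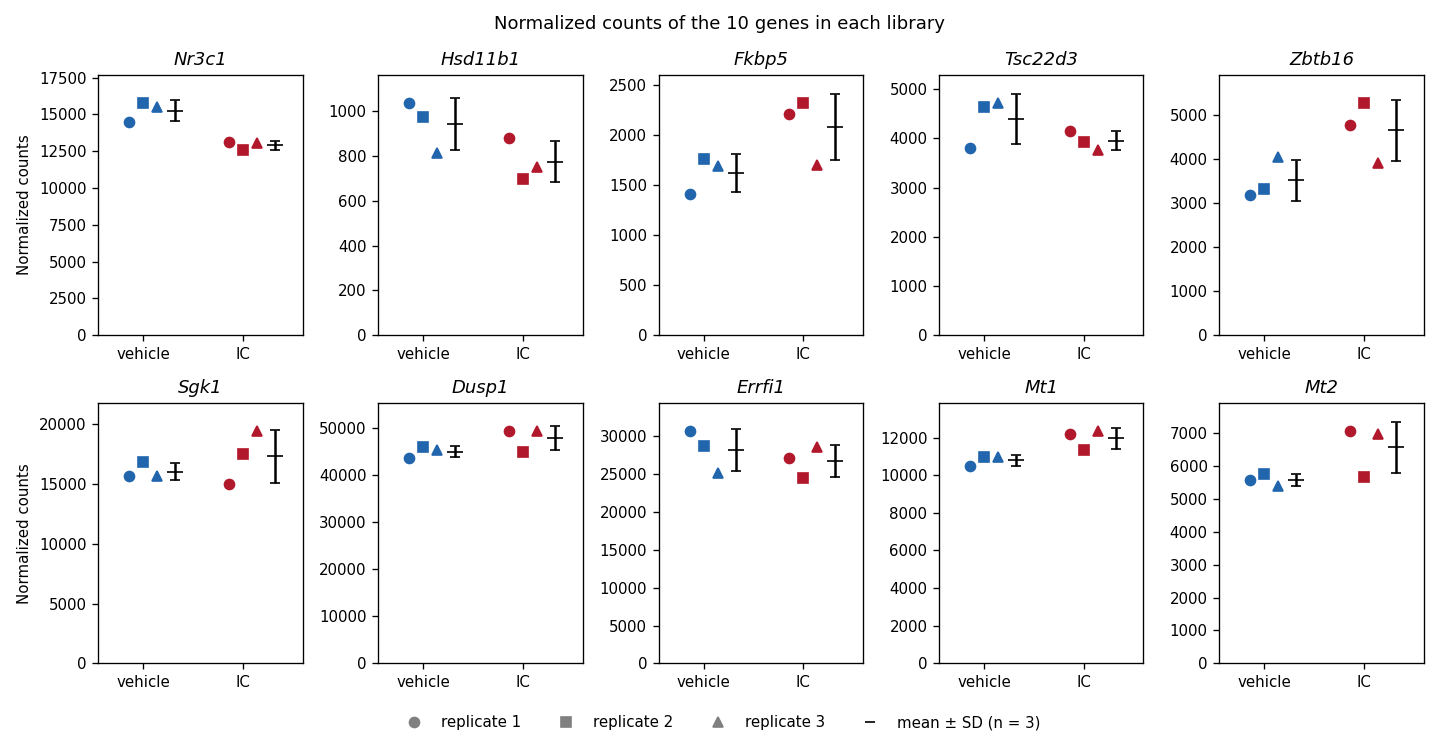
Normalized counts (counts divided by DESeq2 size factors) of the 10 genes in each library, vehicle in blue and IC in red, with the replicate number as the symbol and the mean ± SD of 3 libraries beside it; every vertical axis starts at 0. The groups are apart for Nr3c1, where IC lies at 12553 to 13126 and vehicle at 14491 to 15797, and for Mt1, while IC replicate 3 lies among the vehicle values for Zbtb16.

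Nr3c1, which encodes the glucocorticoid receptor itself (GRCm38 chr18:39410545-39519421, - strand), was lower after IC. Its normalized counts were 13126, 12553 and 13038 in IC replicates 1 to 3 and 14491, 15797 and 15508 in vehicle replicates 1 to 3. The 3 IC values were all below the 3 vehicle values, and the IC libraries lay closer together than the vehicle libraries. The means were 12906 ± 309 (SD, n = 3) and 15265 ± 686 (SD, n = 3), a log2 fold change of -0.24 ± 0.07 (SE), or 0.846-fold (DESeq2 adjusted p = 0.0376). The 95% interval of the change ran from -23.4% to -6.72%. The call was lost with edgeR (adjusted p = 0.230), and of 6 fits that left out 1 library each it was kept only without vehicle replicate 1 (DESeq2 adjusted p = 0.00186). In the other 5 it had DESeq2 adjusted p from 0.0666 to 0.190, with log2 fold changes of -0.28 to -0.22 over all 6.

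Hsd11b1, encoding the enzyme that regenerates active glucocorticoid (chr1:193221634-193264075, - strand), had the fewest counts of the 10. Its normalized counts were 878, 696 and 752 in the IC libraries and 1038, 974 and 813 in the vehicle libraries. IC replicate 1 lay above vehicle replicate 3, so the groups overlapped. The log2 fold change was -0.28 ± 0.15 (SE) with DESeq2 adjusted p = 0.499, and the 95% interval of the change, -33.3% to 1.35%, reached across 0.

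Fkbp5, Tsc22d3 and Zbtb16 are widely used readouts of receptor activity, and of the 3 Zbtb16 alone passed the test. Fkbp5 encodes a co-chaperone that lowers the receptor's affinity for hormone (chr17:28399094-28517527, - strand). It had 2208, 2319 and 1703 normalized counts in the IC libraries and 1407, 1761 and 1687 in the vehicle libraries. IC replicates 1 and 2 were above every vehicle library, and IC replicate 3 was inside the vehicle range. The means were 2077 ± 329 (SD, n = 3) and 1618 ± 187 (SD, n = 3), a log2 fold change of 0.36 ± 0.14 (SE), or 1.28-fold. The DESeq2 adjusted p was 0.179, from 0.00917 before adjustment. Without IC replicate 3 the log2 fold change was 0.49 with DESeq2 adjusted p = 0.0191, and in the other 5 fits without 1 library it did not pass.

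Zbtb16, encoding the zinc finger repressor PLZF (chr9:48654297-48836222, - strand), rose after IC. Its normalized counts were 4780, 5289 and 3912 in the IC libraries and 3195, 3315 and 4058 in the vehicle libraries. As with Fkbp5, IC replicates 1 and 2 were above all vehicle libraries, and here IC replicate 3 was below vehicle replicate 3. The means were 4661 ± 696 (SD, n = 3) and 3522 ± 467 (SD, n = 3), a log2 fold change of 0.40 ± 0.12 (SE), or 1.32-fold (DESeq2 adjusted p = 0.0455). The 95% interval of the change ran from 11.9% to 56.6%. The call was lost with edgeR (adjusted p = 0.261) and in 4 of 6 fits without 1 library, where replicate 1 or 2 of either group was left out and DESeq2 adjusted p ran from 0.167 to 0.428. Over these 6 fits the log2 fold change ran from 0.30 to 0.52.

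Tsc22d3, encoding the leucine zipper protein GILZ (chrX:140539528-140600659, - strand), had the opposite sign. It had 4159, 3933 and 3774 normalized counts in the IC libraries and 3806, 4647 and 4726 in the vehicle libraries. Vehicle replicate 1 lay within the IC range, and vehicle replicates 2 and 3 were above all IC libraries. The log2 fold change was -0.15 ± 0.10 (SE) with DESeq2 adjusted p = 0.670, and its 95% interval, -21.7% to 3.55%, ended below the lower bounds of 6.38% for Fkbp5 and 11.9% for Zbtb16. The difference between the changes of these genes was not itself tested.

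**Figure D3:**
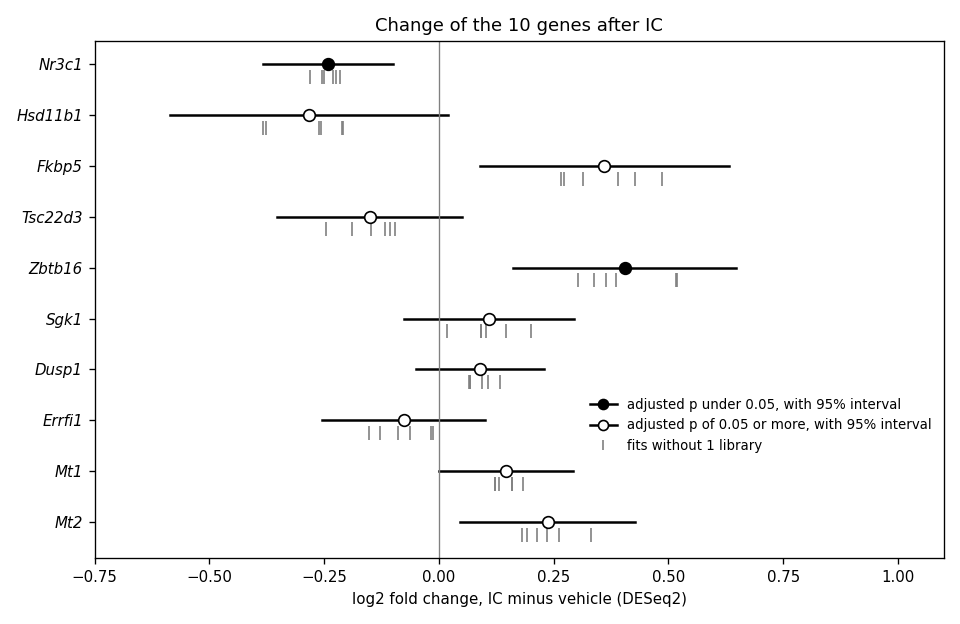
Log2 fold change of each of the 10 genes, IC minus vehicle, from DESeq2 (circles) with its 95% interval (lines); grey ticks are the same estimate in the 6 fits that left out 1 library each. Filled circles, Nr3c1 at -0.24 and Zbtb16 at 0.40, had an adjusted p under 0.05, and no tick of any of the 10 genes crosses 0.

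Sgk1, Dusp1 and Errfi1 are raised by glucocorticoids and also by growth factors, stress and the handling of cells, and none of the 3 passed the test. Sgk1 encodes a kinase of the phosphoinositide 3-kinase pathway (chr10:21882184-21999903, + strand) and had 14995, 17467 and 19425 normalized counts in the IC libraries and 15641, 16804 and 15644 in the vehicle libraries. The IC libraries spread on both sides of the vehicle libraries, with replicate 1 the lowest and replicate 3 the highest of all 6. Its log2 fold change was 0.11 ± 0.09 (SE) with DESeq2 adjusted p = 0.791 and a 95% interval of -5.12% to 22.7%.

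Dusp1 encodes a phosphatase that switches off p38 and JNK kinases (chr17:26505590-26562128, - strand). It had 49409, 44944 and 49362 normalized counts in the IC libraries and 43703, 46048 and 45329 in the vehicle libraries. IC replicates 1 and 3 were the highest of the 6, and IC replicate 2 lay within the vehicle range. The log2 fold change was 0.09 ± 0.07 (SE), with DESeq2 adjusted p = 0.746 and a 95% interval of -3.36% to 17.1%.

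Errfi1 encodes a feedback inhibitor of the epidermal growth factor receptor (chr4:150853919-150868892, + strand). It had 27198, 24455 and 28638 normalized counts in the IC libraries and 30729, 28743 and 25218 in the vehicle libraries, and the groups overlapped over most of their range. The log2 fold change was -0.08 ± 0.09 (SE) with DESeq2 adjusted p = 0.877, the highest of the 10, and a 95% interval of -16.2% to 7.25%.

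The 2 metallothionein genes, whose promoters are printed above, lie next to each other on chromosome 8 and both had higher means after IC without passing the adjusted threshold. Mt1 (chr8:94179082-94180327, + strand) had 12192, 11320 and 12356 normalized counts in the IC libraries and 10465, 10964 and 10975 in the vehicle libraries. All 3 IC libraries were above all 3 vehicle libraries, with IC replicate 2 the closest to them. The means were 11956 ± 557 (SD, n = 3) and 10801 ± 291 (SD, n = 3), a log2 fold change of 0.15 ± 0.07 (SE). The DESeq2 adjusted p was 0.430, from 0.0480 before adjustment. The 95% interval of the change ran from 0.0889% to 22.4%.

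Mt2 (chr8:94172664-94173568, + strand) had 7065, 5672 and 6957 normalized counts in the IC libraries and 5572, 5745 and 5396 in the vehicle libraries. IC replicates 1 and 3 stood above all vehicle libraries, and IC replicate 2 lay within the vehicle range. The means were 6564 ± 775 (SD, n = 3) and 5571 ± 174 (SD, n = 3), a log2 fold change of 0.24 ± 0.10 (SE). The DESeq2 adjusted p was 0.240, from 0.0153 before adjustment. Without IC replicate 2 the log2 fold change was 0.33 with DESeq2 adjusted p = 0.0125, and the other 5 fits without 1 library did not pass, with log2 fold changes of 0.18 to 0.26 and adjusted p of 0.261 to 0.689. On the opposite strand the gene model Gm45774 covers 432 of the 588 exon bases of Mt2, and it had 258 to 361 normalized counts and a log2 fold change of 0.26 (DESeq2 adjusted p = 0.758). Whether the counting used strand is not given in the sources used here, so reads of this pair cannot be told apart in that overlap. Mt1 and Mt2 shared no stretch of 50 bases with each other.

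The ratio of Mt2 to Mt1 counts within a library does not depend on scaling between libraries. It was 0.579, 0.501 and 0.563 in the IC libraries and 0.532, 0.524 and 0.492 in the vehicle libraries. IC replicate 2 was below 2 of the 3 vehicle libraries, so the groups overlapped. The log2 ratio was 0.08 higher in IC, with p = 0.300 in a two-sided exact permutation test whose smallest possible value is 0.1 with 3 libraries against 3. It was 0.04 without IC replicate 1, 0.05 without vehicle replicate 3 and 0.15 without IC replicate 2.

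Levels between genes were compared as TPM, in which counts are divided by exon length and scaled to the same total in each library. Dusp1 was the highest with a mean of 1258 TPM over the 6 libraries (range 1200 to 1349), followed by Mt2 at 925 (811 to 1086), Mt1 at 819 (764 to 885) and Errfi1 at 688 (622 to 780). The ranges of Mt2 and Mt1 overlapped, as did those of Mt1 and Errfi1. Their order also rests on the lengths, since all annotated Mt1 transcripts merge into 1 exon of 1246 bases, against 588 bases in 3 exons for Mt2. Sgk1 followed at 305 TPM (277 to 352), Nr3c1 at 164 (150 to 180), Tsc22d3 at 86.1 (77.2 to 96.2) and Zbtb16 at 69.5 (54.98 to 91.8), with overlap between the last pair. Hsd11b1 at 18.1 TPM (15.0 to 22.2) and Fkbp5 at 17.5 (13.5 to 22.5) were the lowest and changed places when the longest transcript was used as the length, at 30.8 and 34.0.

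The IC library nearest to the vehicle mean differed between genes, which is given as a description. For Fkbp5 and Zbtb16 it was IC replicate 3, with log2 differences from the vehicle mean of 0.08 and 0.16, where IC replicates 1 and 2 were at 0.45 to 0.59. For Mt1 and Mt2 it was IC replicate 2, at 0.07 and 0.03, where IC replicates 1 and 3 were at 0.18 to 0.34. For Dusp1 it was also IC replicate 2, at -0.0023 with the others at 0.13. For Tsc22d3, Sgk1 and Hsd11b1 it was IC replicate 1, at -0.07, -0.10 and -0.09, and for Errfi1 IC replicate 3, at 0.03. For Nr3c1 it was IC replicate 1, and the 3 IC libraries lay close together, from -0.28 to -0.22.

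**Figure D4:**
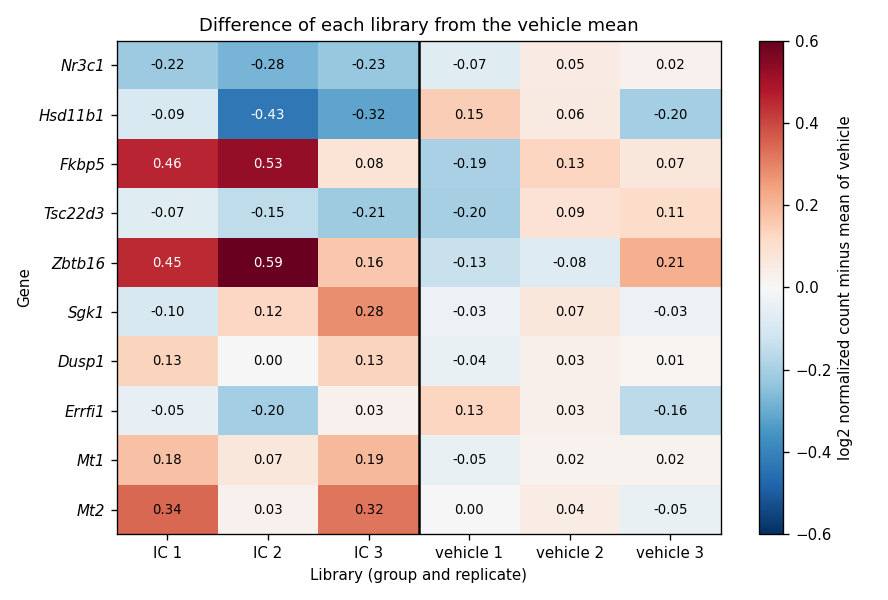
Log2 normalized count of each gene in each library minus the mean of the 3 vehicle libraries, with rows by gene and columns by library; red is above and blue below the vehicle mean. Fkbp5 and Zbtb16 are highest in IC replicates 1 and 2, Mt1 and Mt2 in IC replicates 1 and 3, and Nr3c1 is low in all 3 IC libraries.

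Correlations over the 6 libraries were computed for 4 pairs. Mt1 and Mt2 had Pearson's r = 0.918 (exact permutation p = 0.0278, adjusted over the 4 pairs 0.0639) and Spearman's rho = 0.657 (exact permutation p = 0.175, adjusted 0.350). Without IC replicates 1 and 3, the libraries farthest from the median of Mt1, r was 0.227. Leaving out the extremes narrows the range, which can lower r by itself, so this drop cannot show on which libraries the relation rests. Fkbp5 and Zbtb16 had r = 0.903 (exact permutation p = 0.0319, adjusted 0.0639) and rho = 0.771 (exact permutation p = 0.103, adjusted 0.350), and r was 0.525 without IC replicates 1 and 2. None of these passed the adjusted threshold. Fkbp5 with Tsc22d3 had r = 0.02 and rho = 0.09 (exact permutation p = 0.968 and 0.919), and r was 0.581 without IC replicates 1 and 2. Fkbp5 with Mt2 had r = 0.332 and rho = 0.543 (exact permutation p = 0.504 and 0.297, adjusted 0.672 and 0.396), and r was 0.304 without them. The points share the same 6 libraries and the group difference, and 6 libraries are too few to look within each group.

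Other genes of these pathways were read from textbook lists of 153 genes. The lists were chosen with earlier results of these data known, so their counts are description. Of the 153, 142 were tested and 12 were called by DESeq2, 8 higher and 4 lower, where 2.10% of all tested genes were called. By edgeR none of the 142 passed, where 0.186% of all genes did. In that test 34 had an unadjusted p under 0.05, against 9.64% of all genes. Of 30 other genes that glucocorticoids raise, none was called higher and 2 were called lower. In DESeq2, 8 of the 30 had an unadjusted p under 0.05, against 9.80% of all tested genes, and the median log2 fold change was 0.08. Klf9, a transcriptional repressor that the receptor induces, had 11375 ± 273 normalized counts in IC and 14054 ± 797 in vehicle (SD, n = 3 each) and fell by 0.31 ± 0.08 (SE) on the log2 scale (DESeq2 adjusted p = 0.00436). Pdk4, a mitochondrial kinase that spares glucose during fasting, had 649 ± 104 in IC and 1227 ± 255 in vehicle (SD, n = 3 each) and fell by 0.92 ± 0.18 (SE) on that scale (DESeq2 adjusted p = 4.45e-05). For both genes the groups did not overlap, as for 15.8% of all tested genes, and both passed in all 6 fits without 1 library.

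The other genes of that list named here were not called. Per1, a clock gene with receptor binding at its promoter, had a log2 fold change of 0.03 ± 0.09 (SE) and DESeq2 adjusted p = 0.972, and Cebpd, a transcription factor of the acute phase, had 0.09 ± 0.07 and 0.732. Ddit4, an inhibitor of mTORC1, had 0.11 ± 0.14 and DESeq2 adjusted p = 0.890. Nfkbia, the inhibitor of NF-κB, had 0.13 ± 0.08 and DESeq2 adjusted p = 0.582. Its 3 IC libraries were above the 3 vehicle libraries, and the groups did not overlap, in either direction, for 15.8% of all tested genes. In the list of 30 the groups were apart for 5 genes higher in IC and 4 lower. Of the 30, 19 had a positive and 11 a negative log2 fold change.

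Genes that glucocorticoids are known to restrain were represented by 13 tested genes, of which 3 were called higher and 2 lower, where 2.10% of all tested genes were called. This list was not blind to the data, since the study had already reported Cxcl1 as induced by IC in these fibroblasts. Of the 13, 10 had an unadjusted p under 0.05 in DESeq2, against 9.80% of all tested genes, and the median log2 fold change was 0.38. The neutrophil chemokine gene Cxcl1 rose from 26719 ± 665 to 36439 ± 5575 normalized counts (SD, n = 3 each; log2 fold change 0.45, DESeq2 adjusted p = 0.000664), and the prostaglandin synthase gene Ptgs2 rose from 12065 ± 712 to 15456 ± 711 (0.36, DESeq2 adjusted p = 0.000708). The adhesion molecule gene Vcam1 fell from 5379 ± 590 to 4008 ± 95.7 (-0.42, DESeq2 adjusted p = 0.00146). The remaining 2 calls, named here after their values were seen, were the cytokine gene Il6, 1.46-fold higher, and the collagen gene Col3a1, 0.770-fold. The Il6 call was lost without IC replicate 3, vehicle replicate 2 or vehicle replicate 3 (DESeq2 adjusted p = 0.0630 to 0.0759). The Col3a1 call was lost without IC replicate 1 or 2 or vehicle replicate 2 or 3 (DESeq2 adjusted p = 0.0701 to 0.173).

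Of 20 receptor chaperones, cofactors and hormone-handling genes, DESeq2 called none, where 2.10% of all tested genes were called. An unadjusted p under 0.05 was found for 2 of the 20, against 9.80% of all tested genes. A negative log2 fold change was found for 18, and the median was -0.09. Hsp90aa1, the chaperone that holds the receptor ready for hormone, had 17657 ± 170 in IC and 19552 ± 1165 in vehicle (SD, n = 3 each). Its groups did not overlap, as for 15.8% of all tested genes, and its log2 fold change was -0.15 ± 0.07 (SE; DESeq2 adjusted p = 0.413). Fkbp4, the co-chaperone that counters Fkbp5, had -0.04 ± 0.11 (SE; DESeq2 adjusted p = 0.970). H6pd, which supplies the cofactor for the Hsd11b1 enzyme, had 0.08 ± 0.09 (SE; DESeq2 adjusted p = 0.869).

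Of 23 metal-handling genes tested, DESeq2 called none, where 2.10% of all tested genes were called. An unadjusted p under 0.05 was found for 3 of the 23, against 9.80% of all tested genes, and the median log2 fold change was 0.06. Slc39a14, an importer of zinc and iron, had 4078, 4523 and 6477 normalized counts in the IC libraries against 3771, 3968 and 3588 in the vehicle libraries. All 3 IC values were higher, with replicate 3 well above the others, and groups without overlap were found for 15.8% of all tested genes. The log2 fold change of Slc39a14 was 0.41 ± 0.14 (SE, DESeq2 adjusted p = 0.0870). Leaving out 1 library moved it from 0.19 without IC replicate 3 (DESeq2 adjusted p = 0.549) to 0.54 without IC replicate 1 (0.0189), and the other 4 such fits did not pass (0.134 to 0.536). Mtf1, which encodes the metal-sensing factor whose known motif core was searched above, had a log2 fold change of -0.05 ± 0.11 (SE; DESeq2 adjusted p = 0.948). Slc30a1, the zinc exporter that this factor induces, had -0.02 ± 0.15 (SE; DESeq2 adjusted p = 0.990). The brain metallothionein gene Mt3 was near the floor, with 38.6, 12.4 and 0 normalized counts in IC and 17.2, 0 and 0 in vehicle, and DESeq2 gave it no adjusted p.

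Among 25 tested family relatives of the 10 genes, 1 was called higher and none lower, where 2.10% of all tested genes were called. The called gene was Ereg, a growth factor gene of the epidermal growth factor family that signals through the receptor Errfi1 restrains. Ereg had 61.7, 59.95 and 175.6 normalized counts in the IC libraries against 28.7, 17.0 and 14.6 in the vehicle libraries (log2 fold change 2.29 ± 0.57, SE; DESeq2 adjusted p = 0.00507). IC replicate 3 was far above the others, and the call was lost without it (log2 fold change 1.59, DESeq2 adjusted p = 0.283) or without vehicle replicate 3 (2.12, DESeq2 adjusted p = 0.0606). Of 16 circadian clock genes, some of which receive timing from glucocorticoids, 1 was called, against the same 2.10% of all tested genes. Nr1d1, the clock repressor REV-ERBα, rose from 1193 ± 196 to 1941 ± 110 normalized counts (SD, n = 3 each; log2 fold change 0.70, DESeq2 adjusted p = 5.81e-05), and it passed in all 6 fits without 1 library. Collection times of the 2 groups are not given, so time of day and IC cannot be told apart.

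Of 16 handling and immediate early genes, 3 were called higher and none lower, where 2.10% of all tested genes were called. Their median log2 fold change was -0.0087. Ier3, Fosb and Nr4a1 rose 1.35-fold, 1.21-fold and 1.21-fold (DESeq2 adjusted p = 0.000342, 0.00350 and 0.00637). For each of them the groups did not overlap, as for 15.8% of all tested genes. Dusp1, Sgk1 and Errfi1 share with these genes a fast response to handling, and their own log2 fold changes were between -0.08 and 0.11.

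**Figure D5:**
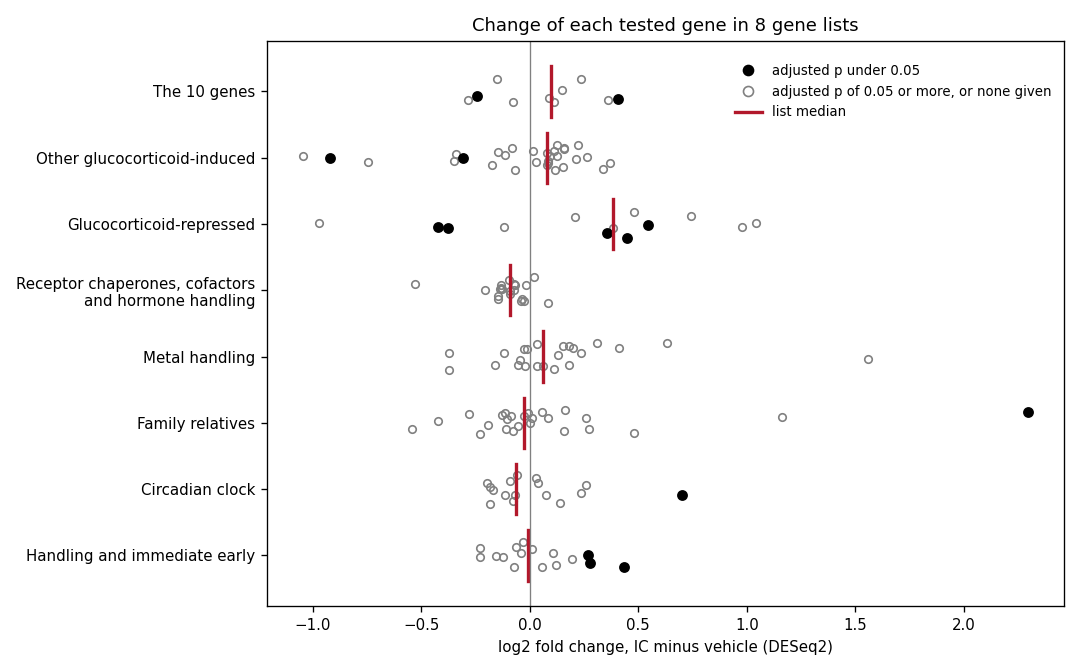
Log2 fold change, IC minus vehicle, of each tested gene in the list of 10 and in 7 other lists, with filled points for DESeq2 adjusted p under 0.05 and a red line at each list's median. The median was 0.10 for the 10 genes and 0.38 for glucocorticoid-repressed genes, and the filled point far to the right is Ereg.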

How the data were processed

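Total RNA of sorted synovial fibroblasts was sequenced in paired ends, with 3 IC and 3 vehicle libraries. The labels name a stranded total RNA kit with ribosomal depletion, and the study's methods name another kit for sorted cells. Per the submitters' processing notes, the authors trimmed reads with Trim Galore, aligned them to mm10 with HISAT2 and counted them per gene with featureCounts; versions, annotation and strand setting are not given in the sources used here. The deposited values are raw counts per gene, in a combined table whose 6 columns equal the 6 per-library files. No column was without a sample.

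The 10 genes and the other lists were chosen with earlier results of these data known. Named genes were the 10 members, Per1, Klf9, Cebpd, Ddit4, Nfkbia, Fkbp4, Hsp90aa1, H6pd, Mtf1, Slc30a1, Slc39a14 and Mt3 whatever their values, and the 3 called genes with the smallest adjusted p in each other pathway list.

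A gene was tested when 3 or more libraries each held 10 or more of its counts (19925 of 24348 genes), with DESeq2 1.42.0 in its default workflow, which the study's methods name, with group as the only term, Benjamini-Hochberg adjustment and a threshold of 0.05. With its default independent filtering, DESeq2 gave no adjusted p to 3870 of the tested genes and adjusted over the rest. The study's methods name sva for batch removal too, but give neither its place in the workflow nor how many surrogate variables were used, and the labels give no batch, so sva was run as an alternative. Normalized counts are counts divided by the DESeq2 size factors. Alternatives used edgeR 4.0.16, limma 3.58.1 with voom, other scalings and filters, a replicate block, 1 surrogate variable from sva 3.50.0 (R 4.3.3), and leaving out each library. Exact permutation tests used SciPy 1.17.1 on Python 3.11.15. The fits were tested on simulated counts before use.

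Gene positions and exon lengths came from the GENCODE annotation of GRCm38, the build called mm10, which held 98.1% of the symbols. Promoter sequences are from RefSeq on GRCm38.p6. Same-numbered libraries of the groups did not deviate together (correlations of -0.09, -0.16 and 0.02 over 13435 genes), so the replicate numbers were not used as pairs. No pair of libraries within a group agreed within sampling noise.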

Additional observations from a re-analysis of the deposited data

How the results depend on the processing

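The sign of all 10 members' log2 fold changes held in the 16 other fits. Of these 160 values, 140 stayed on the same side of the threshold, 18 dropped out of significance and 2 entered it. The count of called members, 2 (419 of all genes), fell to 0 with edgeR (37), limma-voom (62), the replicate block (320) and 1 surrogate variable (334), and to 1, Nr3c1, with independent filtering off (372). At an unadjusted p under 0.05 these fits gave 4, 6, 4, 5 and 5 members, against 9.64%, 10.3%, 8.26%, 8.65% and 9.80% of all genes. With 1 library left out the count ran from 0 to 2, with 281 to 677 of all genes called, 677 of them without vehicle replicate 1. Under the block Zbtb16 had DESeq2 adjusted p = 0.139 and Nr3c1 0.182. Same-numbered libraries did not deviate together, which does not settle whether the replicate numbers pair the libraries. In the other pathway lists the count of 12 fell to 0 with edgeR and 2 with limma-voom and was 10 to 21 with 1 library left out, 21 without vehicle replicate 1. The cause of these losses was not tested.

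The log2 difference of the Mt2 to Mt1 ratio was 0.04 to 0.15 with 1 library left out. Some uncalled genes changed sign when 1 library was left out: Per1 ran from -0.017 to 0.071, Ddit4 from -0.017 to 0.213, Fkbp4 from -0.14 to 0.022 and Slc30a1 from -0.14 to 0.12 (log2), and Fkbp4 was at 0.014 with 1 surrogate variable. Another scaling moved the median of all genes by at most 0.0056 (log2). With the longest transcript as the length, the TPM of 6 members moved by more than their SD. Every member had at least 669 raw counts in every library, and with 3 libraries a group an exact permutation test cannot go below 0.1.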
